A study of Mus musculus with 2 samples.

Results

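The growth hormone receptor pathway was examined through 10 genes, Socs2, Cish, Ghr, Jak2, Stat5a, Stat5b, Bcl6, Onecut1, Prlr and Egfr, out of 18194 genes named on the array. The 10 were chosen by pathway, with their FLS/DS ratios on these same arrays already known, so their levels are described and not tested. Growth hormone binds its receptor GHR on hepatocytes and activates the kinase JAK2, which phosphorylates the transcription factors STAT5A and STAT5B. The STAT5 dimer enters the nucleus and turns on Socs2 and Cish, whose proteins return to the receptor and damp it. In male rodents the hormone is released in pulses and in females more evenly, which gives the liver its sex-biased genes, and mice whose hepatocytes lack STAT5 or GHR are known to develop fatty liver.

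The FLS group was liver RNA pooled from 3 inbred FLS mice, the model of NASH, and the DS group was liver RNA pooled from 3 inbred DS mice, a sister strain and the model of simple steatosis. All mice were 19 weeks of age and were fed a standard pellet diet. The authors reported a lower body weight for FLS than for DS mice at this age. The labels name no engineered allele and no treatment. The livers were perfused with saline before removal. Each pool was hybridized to 1 Affymetrix mouse genome array, so the spread between mice was not measured, differences could not be checked in replicates, and p-values are not given. The sex of the mice and the time of day at which the livers were taken are not given in the sources used here.

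Levels are signal intensities on a linear scale, in arbitrary units, and a fold change is the FLS/DS ratio of the signals of 1 probe set, a group of short oligonucleotides that match a transcript. Signals of different probe sets were not read as relative amounts of their transcripts. They were compared to choose the probe set of a gene and added up over the markers of a cell type. The median signal over all 45101 probe sets was 120.3 for FLS and 125.2 for DS livers. A signal below 200 was read as too close to this level to measure, so the size of a ratio with such a signal is a bound, given as the fold with that signal set to 200. Of the 10 genes, 9 were represented by 27 probe sets, and no probe set was annotated to Prlr, the prolactin receptor gene, which was not analysed here. A gene with several probe sets was read from the one with the highest mean signal. All 9 genes had a signal of at least 200 in at least 1 pool, 6 of them in both pools. The signals nearest to this limit among the 9 gene values were 208 for Stat5a in DS livers and 237 for Cish in FLS livers above it, and 178 for Stat5a in FLS livers and 122 for Onecut1 in FLS livers below it.

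Hepatocyte markers had similar signals in both pools. Alb, which encodes albumin, had a signal of 32018 in FLS livers against 30942 in DS livers, and the 11 markers found on the array had ratios from 1.01 to 1.35, all above 1 as deposited, beside 54.6% of all 9160 genes with a signal of at least 200 in at least 1 pool. After quantile normalization 2 of the 11 lay below 1. The X-inactivation transcript Xist had a signal of 106 in FLS livers against 117 in DS livers, both below 200, while the Y-linked gene Eif2s3y had 1080 in FLS livers against 1249 in DS livers. The Y-linked genes Uty and Kdm5d lay near 200. Uty had 212 in FLS livers against 239 in DS livers, and Kdm5d 222 in FLS livers against 190 in DS livers. Both pools thus had Eif2s3y and Uty measured and Xist not measured, the pattern of male mice.

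The letters that STAT5 dimers recognize are TTCNNNGAA, a palindrome that reads the same on both strands. They are shown here because Cish and Bcl6, with FLS/DS ratios of 0.326 and 1.71, both carry them near a transcript start. Bcl6 did not reach 2-fold, and its second probe set had a ratio of 1.15. The window searched ran from 250 bases before to 50 bases after each start, taken from RefSeq on build GRCm38.p6. Windows were found for 9 of the 10 genes, 15 windows in all, and not for Socs2. The palindrome stood in 4 of these 15 windows, those of Cish, Bcl6 at both of its starts and Prlr at 1 of its 3 starts. Of all 32851 windows of the same length, 8.30% held it at least once, 0.457% at least 2 times and 0.0335% at least 3 times. A related sequence is bound by the BCL6 protein itself, so the letters do not tell which factor might bind, and their presence is a description only. In the sequences below, written 5′ to 3′ on the strand of the gene, the palindromes are in capitals.
Cish, from 100 bases before to 20 bases after the start, chr9:107296559-107296678, plus strand: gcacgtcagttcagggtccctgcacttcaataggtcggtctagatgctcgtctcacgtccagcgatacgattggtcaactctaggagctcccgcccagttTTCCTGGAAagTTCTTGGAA
Bcl6, start 1, chr16:23981344-23981463, minus strand: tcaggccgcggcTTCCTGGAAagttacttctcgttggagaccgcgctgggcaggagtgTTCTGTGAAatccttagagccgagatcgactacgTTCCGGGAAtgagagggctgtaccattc
Bcl6, start 2, chr16:23988942-23988990, minus strand: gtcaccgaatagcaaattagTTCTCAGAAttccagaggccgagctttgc

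In Cish the pair of palindromes was separated by 2 bases and began at positions 1 and 12 of the transcript as RefSeq places its start. At start 1 of Bcl6 the 3 palindromes began at positions -168, -122 and -88, with 37 and 25 bases between them. At start 2 of Bcl6 the single palindrome began at -118. None of the windows of Ghr, Jak2, Stat5a, Stat5b, Onecut1 and Egfr held these letters, which says nothing on sites outside the windows.

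**Figure D1:**
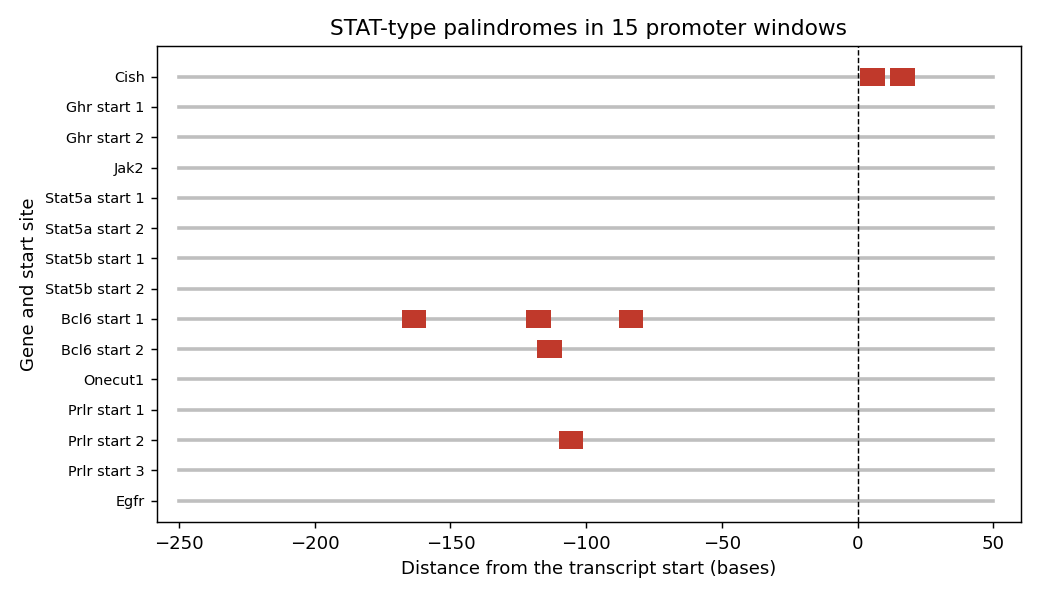
Positions of the palindrome TTCNNNGAA (red bars, 9 bases wide) in the 15 promoter windows, with distance from the transcript start in bases on the horizontal axis and gene and start site on the vertical axis. Cish carries 2 just after its start, Bcl6 3 and 1 before its starts, and Prlr 1.

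Socs2, the suppressor of cytokine signalling whose loss makes mice grow large, had the lowest FLS/DS ratio of the 9 genes. On its main probe set, the one with the highest mean signal, Socs2 measured 115 in FLS livers against 918 in DS livers, an FLS/DS ratio of 0.126. The FLS signal lay below the median of its array, so the level in FLS livers was not measured above background, and with the FLS signal set to 200 Socs2 was at least 4.59-fold lower. Among the 9160 genes with a signal of at least 200 in at least 1 pool, its ratio ranked 10 from the lowest, a rank that is not fixed because several of these ratios are bounds.

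A second Socs2 probe set had a signal of 110 in FLS livers against 426 in DS livers, which makes it at least 2.13-fold lower in FLS livers. Both probe sets are annotated to the same messenger RNA. The other 4 Socs2 probe sets stayed below 200 in both pools, with FLS signals from 72.5 to 127 and DS signals from 81.7 to 189, and their ratios of 0.675 to 0.938 compare levels near background. The median ratio over all 6 probe sets was therefore 0.716.

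**Figure D2:**
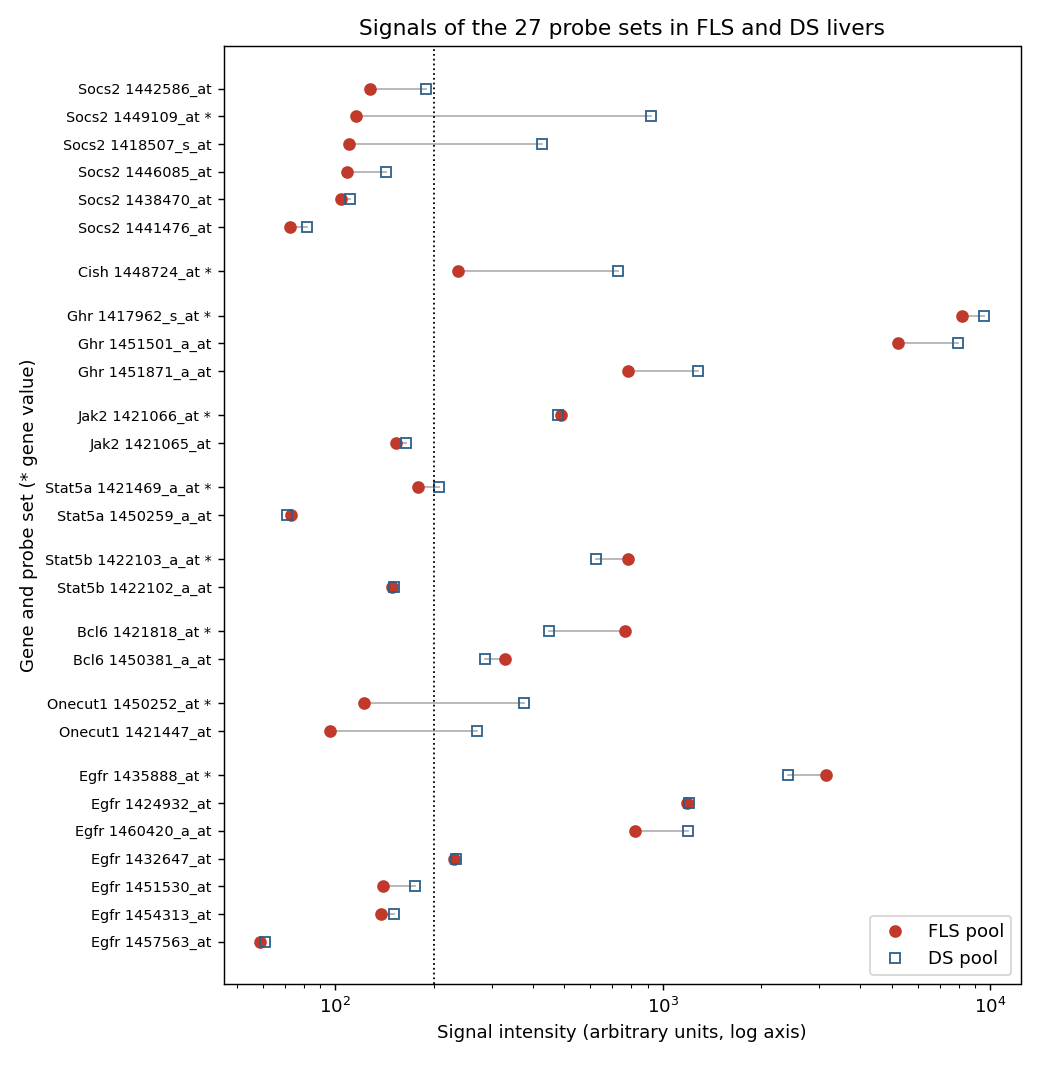
Signal intensity (log axis, arbitrary units) of all 27 probe sets in the FLS pool (filled circles) and the DS pool (open squares), 1 array each, with the probe set that gives the gene value marked by an asterisk and a dotted line at 200. The FLS circles of Socs2 and Onecut1 lie left of the line at 115 and 122 while their DS squares lie right of it at 918 and 377, whereas the symbols of Jak2 nearly coincide at 488 in FLS and 477 in DS livers.

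Cish, which encodes the SH2 protein CIS, the founding member of the same family of receptor inhibitors, had a signal of 237 in FLS livers against 728 in DS livers. The ratio was 0.326 with both signals above 200. Cish has a single probe set, so its value has no check by other oligonucleotides. Onecut1 encodes the hepatocyte transcription factor HNF6, whose expression is known to be raised by growth hormone in rat liver. Its signal was 122 in FLS livers against 377 in DS livers, a ratio of 0.323. With the FLS signal set to 200 the gene was at least 1.89-fold lower, so the size of this difference beyond 2-fold rests on a signal near background. The other Onecut1 probe set had 96.6 in FLS livers against 272 in DS livers, a ratio of 0.356.

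Socs2, Cish and Onecut1 were thus the 3 of 9 genes with a ratio of 0.5 or less as deposited, and 0 of 9 had a ratio of 2 or more. Over all 9160 genes, 1.30% had a ratio of 0.5 or less and 1.89% a ratio of 2 or more. With signals below 200 set to 200, 2 of 9 genes, Socs2 and Cish, remained at least 2-fold lower in FLS livers, beside 1.08% of all 9160 genes. As the genes were chosen with these ratios known, nothing is read from the contrast of their counts with these shares. The median log2 ratio was -0.22 over the 9 genes and 0.030 over all 9160, or -0.056 over the 9 with signals below 200 set to 200, as the middle gene was Stat5a.

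**Figure D3:**
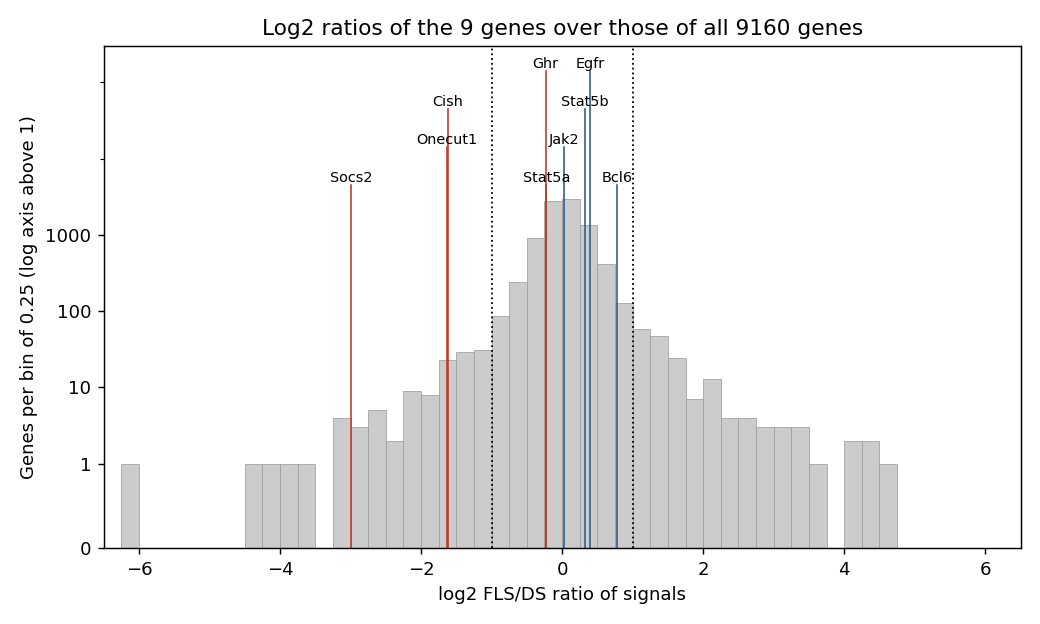
Numbers of genes per bin of 0.25 in log2 FLS/DS ratio (vertical axis logarithmic above 1) for all 9160 genes with a signal of at least 200 in at least 1 pool, with the 9 pathway genes marked by vertical lines of arbitrary height and 2-fold differences by dotted lines. Socs2 stands in the left tail at -2.99, Onecut1 and Cish at -1.63 and -1.62, and the other 6 genes lie between the dotted lines.

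The messenger RNA of the receptor and of the proteins that carry its signal differed far less. Ghr, the receptor gene itself, had a signal of 8163 in FLS livers against 9581 in DS livers, a ratio of 0.852. Its other probe sets gave 5207 in FLS livers against 7949 in DS livers, a ratio of 0.655, and 782 in FLS livers against 1277 in DS livers, a ratio of 0.612. All 3 Ghr probe sets were thus lower in FLS livers, by less than 2-fold. The mouse gene makes both the receptor and a shorter secreted binding protein, and which transcript each probe set detects was not examined.

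Jak2, the kinase bound to the receptor, had a signal of 488 in FLS livers against 477 in DS livers, a ratio of 1.02. Stat5b, the STAT5 gene that carries most of the male pattern of the mouse liver, had 785 in FLS livers against 626 in DS livers, a ratio of 1.25. Its second probe set was below 200 in both pools, at 149 in FLS livers against 151 in DS livers. Stat5a, its close relative, had 178 in FLS livers against 208 in DS livers, a ratio of 0.857 at the edge of what could be measured. The kinase and both STAT5 genes thus lay within 1.5-fold, on signals that describe messenger RNA and not the phosphorylated proteins through which the pathway acts.

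Bcl6, a transcriptional repressor that growth hormone is known to lower in rodent liver and that shares target genes with STAT5, had the highest ratio of the 9 genes. Its signal was 767 in FLS livers against 448 in DS livers, a ratio of 1.71. The second probe set had 329 in FLS livers against 287 in DS livers, a ratio of 1.15. Bcl6 was the 1 gene of the 9 at least 1.5-fold higher, beside 5.35% of all 9160 genes, and 0 of its probe sets reached a 2-fold difference.

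Egfr encodes the epidermal growth factor receptor, whose level in mouse liver is known to depend on growth hormone. Its main probe set had 3155 in FLS livers against 2403 in DS livers, a ratio of 1.31, while another well measured probe set had 1187 in FLS livers against 1199 in DS livers, a ratio of 0.990. A further probe set had 823 in FLS livers against 1191 in DS livers, a ratio of 0.691. The 4 Egfr probe sets with a signal of at least 200 therefore lay on both sides of 1, and no direction can be given for the gene as a whole.

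Among related genes from lists drawn up by hand, none of the measured inhibitors and signal carriers reached a 2-fold difference. Of 4 measured members of the rest of the SOCS family, all lay within 2-fold, among them Socs3 at 422 in FLS livers against 447 in DS livers, a ratio of 0.944, and Socs4 at 1063 in FLS livers against 796 in DS livers, a ratio of 1.34. All 6 measured genes of other Janus kinases and STAT factors also lay within 2-fold, with a median log2 ratio of 0.33, and Stat3, the factor of interleukin-6 signalling, had 1274 in FLS livers against 999 in DS livers. The 13 measured genes of phosphatases and adaptors of the receptor had a median log2 ratio of 0.011 and ratios from 0.786 to 1.46. The highest of them was Irs1, a docking protein of the insulin receptor, at 1396 in FLS livers against 958 in DS livers.

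Of 10 measured genes of other cytokine receptors, 0 passed 2-fold in either direction, with a median log2 ratio of 0.14. The lowest was Lifr, the receptor of leukemia inhibitory factor, at 1710 in FLS livers against 2603 in DS livers, a ratio of 0.657. The 4 measured genes of the epidermal growth factor family had ratios from 0.950 to 1.43, and the highest was the ligand gene Tgfa at 569 in FLS livers against 398 in DS livers. Among 11 measured hepatocyte transcription factors, 0 passed 2-fold on the deposited scale. Nr0b2, the bile acid induced repressor SHP, came nearest at 2887 in FLS livers against 1465 in DS livers, a ratio of 1.97 that passed 2 when ratios were centred on their median or divided by the Actb ratio. Onecut2, the paralog of Onecut1, had 854 in FLS livers against 732 in DS livers, a ratio of 1.17.

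Igf1, Igfals and Igfbp3, liver genes whose products circulate and depend on growth hormone, lay within 1.5-fold. Igf1, the gene of insulin-like growth factor 1, had a signal of 8683 in FLS livers against 9229 in DS livers, a ratio of 0.941, and its 3 other probe sets had ratios of 1.01, 1.13 and 1.17. Igfals, the gene of the acid-labile subunit that keeps the factor in blood, had 1097 in FLS livers against 907 in DS livers, a ratio of 1.21, and Igfbp3, the main carrier, had 797 in FLS livers against 648 in DS livers. Of the 5 genes of this list, Igfbp1 was at least 2-fold lower at a ratio of 0.409 and Igfbp2 at least 2-fold higher at 2.49, and both encode binding proteins that also follow insulin and fasting. Like Cish, both genes have a single probe set.

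Genes known to be higher in male than in female mouse liver, which depend on pulses of growth hormone and on STAT5B, were measured for 16 of 24 listed names. Of these, 3 had ratios of 0.5 or less as deposited, of which 2, Ugt2b38 and Cyp7b1, stayed there with signals below 200 set to 200, and 1 had a ratio of 2 or more. Over all 9160 genes, 1.30% had a deposited ratio of 0.5 or less and 1.89% one of 2 or more. Ratios lay below 1 in 13 of the 16, beside 45.4% of all 9160 genes, with a median log2 ratio of -0.20. When each ratio was divided by the Actb ratio, a scaling that raises every log2 ratio by 0.21, 8 of the 16 lay below 1, beside 18.9% of all genes, and the median was 0.0078. Ugt2b38, a glucuronosyltransferase, had 647 in FLS livers against 3001 in DS livers, a ratio of 0.216. Moxd1, a monooxygenase relative, had 56.1 in FLS livers against 361 in DS livers, which makes it at least 1.81-fold lower. Cyp7b1, the oxysterol 7-alpha-hydroxylase, had 3955 in FLS livers against 8163 in DS livers, a ratio of 0.484, and a second measured probe set gave 0.434, but its main probe set came within 2-fold after division by Actb. Elovl3, a fatty acid elongase, ran the other way with 2618 in FLS livers against 1298 in DS livers, and came within 2-fold after removal of a loess trend of the ratio over the mean signal.

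The 12 other male-biased genes had ratios from 0.714 to 1.48, of which 10 lay below 1. Cyp4a12a, a fatty acid hydroxylase, was at the low end and Ces2e, a carboxylesterase, at the high end. Gstp1, a glutathione transferase, had 18387 in FLS livers against 24605 in DS livers, a ratio of 0.747. Mup3, a major urinary protein, had 17468 in FLS livers against 19793 in DS livers, a ratio of 0.883. Cyp2d9 had a ratio of 0.925, the organic anion transporter Slco1a1 of 0.862 and the steroid dehydrogenase Hsd3b5 of 1.09. The probe sets of such gene families can bind several near-identical members, so these values belong to the family rather than to 1 gene with certainty.

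Genes known to be higher in female liver were measured for 12 of 29 listed names. Of these, 3 were 2-fold or more higher in FLS livers and 2 were 2-fold or more lower. Over all 9160 genes, 1.89% were 2-fold or more higher and 1.30% 2-fold or more lower. Ratios lay below 1 in 7 of the 12, beside 45.4% of all 9160 genes. After division by the Actb ratio 4 lay below 1, beside 18.9%. The median log2 ratio was -0.063, or 0.14 after that division, but 0.71 with a signal limit of 500. Cyp2b13 had 89.8 in FLS livers against 737 in DS livers and was at least 3.68-fold lower. Ntrk2, the receptor gene of brain-derived neurotrophic factor, had 350 in FLS livers against 709 in DS livers, a ratio of 0.493, with 0.391 and 0.796 on its 2 other measured probe sets, and came within 2-fold after median centring or division by Actb. In contrast, Cyp4a14 was at least 7.41-fold higher at 1482 in FLS livers against 84.6 in DS livers, and Cyp2b10 at least 7.50-fold higher at 1501 in FLS livers against 156 in DS livers. The other Cyp2b10 probe sets had 987 in FLS livers against 107 in DS livers, and 782 against 121, which gives smaller bounds. Cyp4a14 is also a target of the lipid sensor PPAR-alpha and Cyp2b10 of the xenobiotic receptor CAR. The estrogen sulfotransferase gene Sult1e1 had 2318 in FLS livers against 989 in DS livers, a ratio of 2.35, and Fmo1 joined these higher genes after division by Actb. The sex-biased genes with deposited ratios beyond 2-fold thus ran in both directions in both lists, except that no male-biased gene was beyond 2-fold on the higher side after loess. Among them, Ugt2b38, Moxd1, Elovl3, Cyp2b13, Cyp4a14 and Sult1e1 each have a single probe set, so their values have no check by other oligonucleotides.

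**Figure D4:**
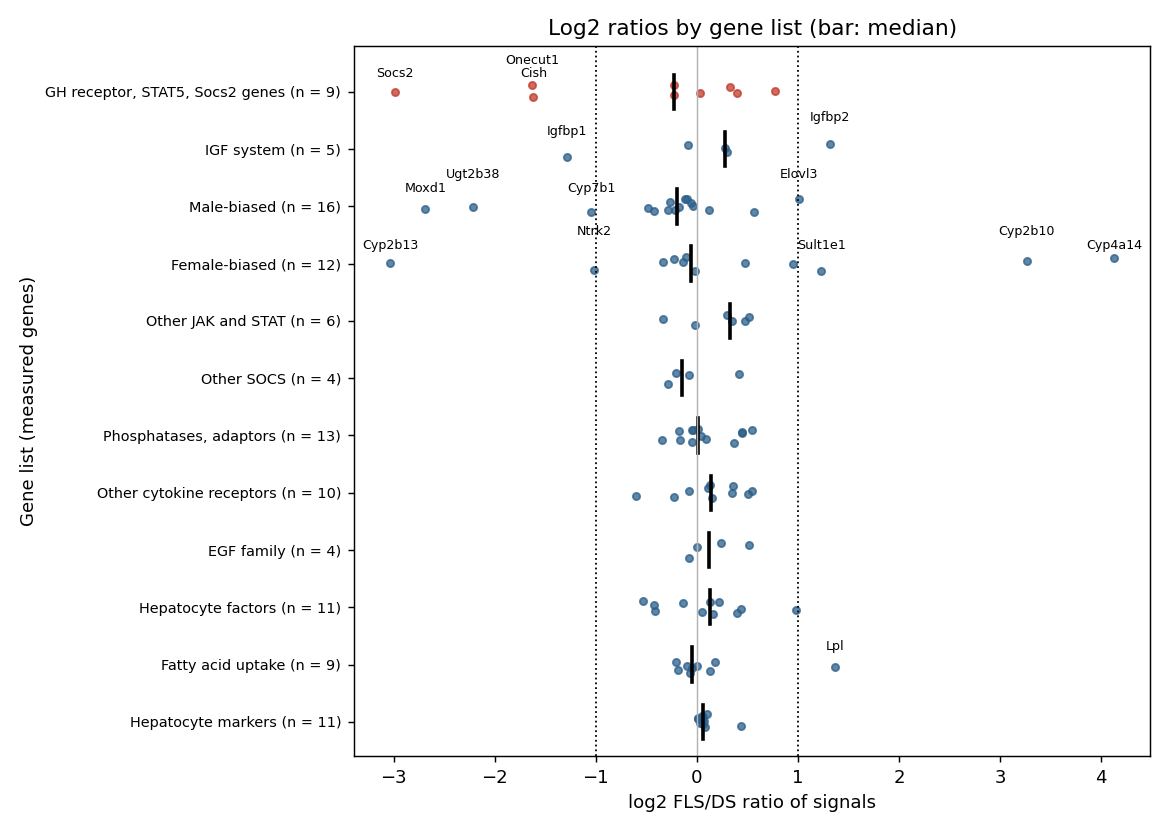
Log2 FLS/DS ratio of each measured gene (points) in the pathway genes (red) and in 11 other lists (blue), with the list median as a black bar, dotted lines at 2-fold and names for the genes beyond them, with signals below 200 as deposited. Pathway genes beyond 2-fold lie only on the left, male-biased and female-biased genes on both sides, and the other JAK, STAT, SOCS and adaptor genes all lie between the lines.

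Of 9 measured genes of fatty acid uptake, some of which are known to be higher in mouse livers without STAT5, 1 had a ratio above 2 and 0 had one below 0.5, with a median log2 ratio of -0.047. Cd36, the fatty acid translocase, had 951 in FLS livers against 869 in DS livers, a ratio of 1.09. Lpl, the lipoprotein lipase gene, was the 1 beyond 2-fold, at 1799 in FLS livers against 698 in DS livers. A second Lpl probe set stayed within 2-fold, at 450 in FLS livers against 231 in DS livers, a ratio of 1.95. Pparg, the nuclear receptor of fat storage, had 90.4 in FLS livers against 134 in DS livers, both below 200.

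In pooled liver RNA, fewer cells of a type and less RNA per cell cannot be told apart. The summed signal of the 11 hepatocyte markers was 215414 in FLS livers against 207221 in DS livers. Such sums mostly follow the markers with the highest signals. Those of stellate and sinusoidal endothelial cells include 2 markers each below 200 in both pools. The 10 markers of Kupffer cells and macrophages summed to 6374 in FLS livers against 7905 in DS livers with ratios from 0.554 to 1.26. Of these, 8 had ratios below 1, beside 45.4% of all genes. After division by the Actb ratio 6 did, beside 18.9%. The 10 markers of stellate cells summed to 12448 in FLS livers against 9424 in DS livers with ratios from 0.880 to 2.02, and the highest, Pdgfrb, had a DS signal below 200, which makes it at least 1.81-fold higher. The 10 markers of sinusoidal endothelial cells summed to 7882 in FLS livers against 7329 in DS livers, with ratios from 0.858 to 1.83, and Tek passed 2-fold after division by Actb. Markers of T and NK cells, B cells and neutrophils were mostly below 200 in both pools, in 5 of 7, 4 of 5 and 4 of 7 genes. The 5 bile duct markers on the array included 2 with a signal of at least 200, of which Sox9 had 365 in FLS livers against 140 in DS livers and was at least 1.83-fold higher, while Epcam had 182 in FLS livers against 211 in DS livers, a ratio of 0.861. The part of these cell types in the values of the pathway genes was not tested.

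Socs2 had the lowest ratio of the 9 genes under each scaling of the arrays. Median centring and division by Actb shift all ratios alike, so this order could not change under them. Over 4 other scalings the ratio of Socs2 ranged from 0.125 to 0.145, that of Cish from 0.320 to 0.376 and that of Onecut1 from 0.324 to 0.373. The ratio of Bcl6 ranged from 1.66 to 1.97 and stayed below 2, and those of Ghr and Stat5b ranged from 0.843 to 0.982 and from 1.21 to 1.45. Jak2 lay on both sides of 1, from 0.994 to 1.18. The choice of probe set shifted Socs2, Ghr, Bcl6 and Egfr by more than these scalings did. The median over all probe sets was 0.716 for Socs2, 0.655 for Ghr, 1.40 for Bcl6 and 0.965 for Egfr.

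**Figure D5:**
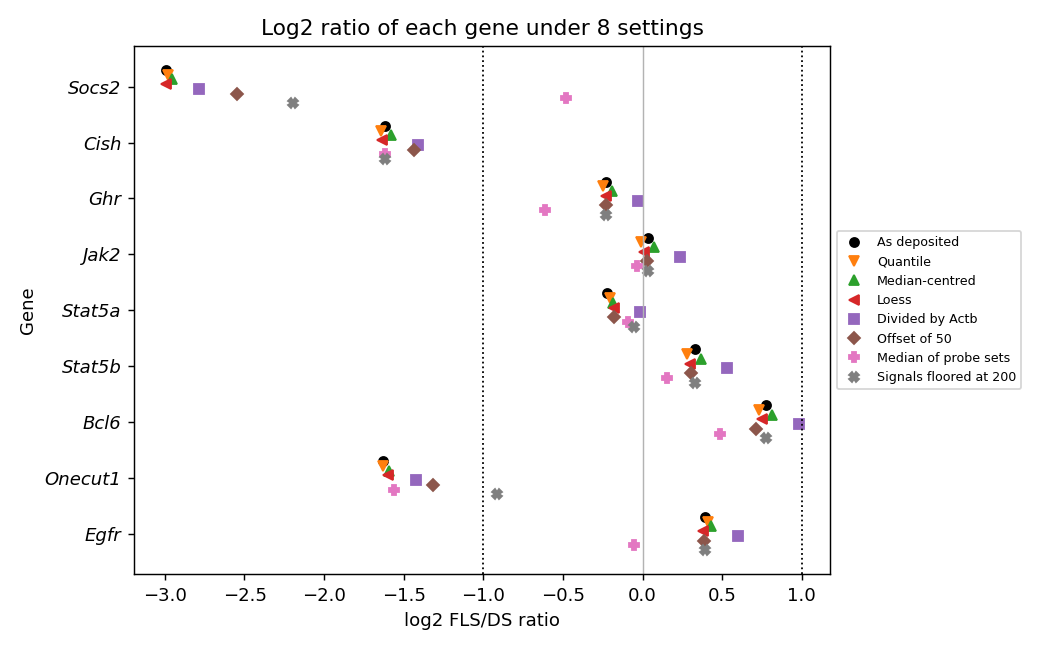
Log2 FLS/DS ratio of each of the 9 genes as deposited and under 7 alternatives (symbols, offset vertically for legibility), with dotted lines at 2-fold. Socs2 stays left of the left line except when the median over its 6 probe sets is taken, Cish stays left under every setting shown, and Onecut1 crosses the line when signals below 200 are set to 200.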

How the data were processed

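Pooled liver RNA of 3 FLS and 3 DS mice was measured on 1 array per strain. The deposited values are signal intensities that the authors summarized with the MBEI (PM-only) algorithm, which models perfect-match probes, and normalized. In the submitters' processing notes affy is named with no version, and no source used here states the scaling between arrays. The platform annotation gave 1 symbol to 34958 of 45101 probe sets and several to 932, which were not used, while 9211 were unnamed. Symbols were updated through Entrez numbers for 34754 probe sets.

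Ratios (FLS over DS) and their log2 were taken per probe set, with a signal limit of 200 and a fold limit of 2. The members, and the 20 gene lists with 227 entries (194 found), were chosen with earlier results of these data known. Named genes were all members and, from each list, genes past 2-fold or otherwise those among the 4 of largest absolute log2 ratio. Alb, Cd36, Ces2e, Cyp2d9, Cyp4a12a, Epcam, Gstp1, Hsd3b5, Igf1, Igfals, Igfbp3, Mup3, Onecut2, Slco1a1, Socs3 and Stat3, the sex chromosome transcripts and Pparg were chosen by hand with values in view, even where the rule also names them. The code for the ratios and 2-fold counts was checked on simulated signals. Alternatives were 4 scalings (quantile, median, loess with fraction 0.4, Actb), an offset of 50, other probe set rules and other limits. The number of arrays, 2, limits precision. The software was matplotlib 3.10.9, statsmodels 0.14.6, pandas 2.3.3 and numpy 2.4.6 under Python 3.11.15.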

Additional observations from a re-analysis of the deposited data

How the results depend on the processing

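Ratios that moved by at least 0.22 (log2), the SD between probe sets of a gene pooled over 2790 genes, are listed here, and 0 ratios called beyond 2-fold changed direction. Centring, the Actb ratio and the signal limits shift all ratios alike or not at all, so the single ratios could not move far under them. The Socs2 ratio was 0.171 with an offset of 50, 0.716 as the median over its probe sets, of which 4 lay below 200, and 0.218 with signals below 200 set to 200, a setting chosen after the data were seen. With a signal limit of 500, which leaves out Jak2, Stat5a and Onecut1, the median log2 ratio of the members was 0.048, and that of the female-biased genes was 0.71. At a 1.5-fold limit 1 member was higher. The number of members with a ratio of 0.5 or less was 3, or 2 with the median over probe sets, the limit of 500 or the floor of 200. Among the other members the ratio moved to 0.655 for Ghr (median over probe sets, or without _x_at and _s_at probe sets), 0.965 for Egfr and 1.40 for Bcl6 (median), and 0.402 (offset) and 0.530 (floor) for Onecut1. Apart from the effect of these choices on which signals enter, the cause was not tested. No paired analysis was possible because each strain has 1 array.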
